A study of Mus musculus with 10 samples.

Results

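The 9 genes described here encode the core machinery of inflammasome activation, pyroptosis and necroptosis. They were taken by symbol from a list that sets no threshold on measured values, although earlier results of these data were known when it was drawn up, and all 9 were found among the 25232 genes of the deposited table. The data are from bulk RNA-seq of spinal cord from female C57BL/6 mice (C57BL/6J in the methods) aged 90 days, with 5 wild type (WT) mice and 5 *SOD1G93A* littermates. The *SOD1G93A* animals carry a human *SOD1* transgene at high copy number with a mutation of familial ALS, driven by the human gene's own promoter, so that mutant protein is made in all cell types of the cord. The methods give the lumbar region and the labels name no region. The table holds 1 usable measurement for each gene, the base mean, which is the authors' mean of normalized counts over all 10 libraries. Both genotypes are pooled in it, so the levels below describe WT and *SOD1G93A* cord as 1 pool, and the difference between genotypes and the spread between mice were not analysed here.

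An inflammasome is a cytosolic complex in which a sensor such as NLRP3 recruits the adaptor ASC and, through it, caspase-1. Active caspase-1 matures the cytokines IL-1beta and IL-18 and cleaves gasdermin D, whose released fragment opens pores in the plasma membrane and ends in the lytic death known as pyroptosis. Caspase-11, the product of mouse *Casp4*, cleaves gasdermin D without a canonical inflammasome, after sensing lipopolysaccharide in the cytosol. Necroptosis is a second lytic route, in which the kinases RIPK1 and RIPK3 join through a shared interaction motif and RIPK3 activates the membrane-disrupting pseudokinase MLKL. Caspase-8 stands between these routes, because it starts apoptosis and also cuts RIPK1 and RIPK3. In the central nervous system inflammasome genes are best known from microglia.

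The base means of all genes sum to 22158933 normalized counts. In a base mean over 10 libraries, a gene with a single read in 1 library takes a value that depends only on the size factor of that library. Exactly 10 such values were found, shared by 716 genes, and the size factors read from them ran from 0.840 to 1.15. The largest was 1.37 times the smallest, so the depths of the libraries were similar. Which library belongs to which mouse is not shown by these values. They allow the smallest error of each base mean, that of counting alone, and the errors given with levels are this counting error (1 SE unless stated). It does not include variation between mice, and it would be larger if both reads of a pair had been counted.

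The tissue label was checked against marker genes. The myelin gene *Mbp* had the highest base mean of the table, 319615, and the neuronal gene *Snap25* had 59050 and the astrocyte gene *Gfap* 56289. The motor neuron enzyme gene *Chat* had a base mean of 735, and the other motor neuron markers *Slc5a7*, *Isl1* and *Mnx1* had 2316, 45.6 and 37.3. All 7 microglial markers were measured, among them *Aif1* with 110.6, *P2ry12* with 583 and *Csf1r* with 3041. Of the other cells such a sample could hold, the neutrophil genes *S100a8* and *S100a9* had base means of 36.1 and 61.4. The other neutrophil markers *Mpo*, *Elane* and *Ly6g* had 8.14, 2.66 and 0.580. T and B cell markers had base means of at most 10.6. The muscle genes *Acta1*, *Myh4* and *Ckm* had 251, 203 and 107.5, and the liver markers *Apoa2*, *Alb* and *Ttr* had 216, 46.8 and 37.7. The globin genes *Hba-a1*, *Hbb-bs* and *Hbb-bt* were listed at 0, although *Alas2*, of red cell haem synthesis, had 137.3. Only uniquely mapped reads were counted, and reads that fit more than 1 globin gene would be lost, so these values of 0 do not show that red cells were absent.

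All 9 genes were detected and all were weakly expressed in whole cord. Together they summed to a base mean of 559, which was 0.00252% of the total. *Ripk1*, the kinase at the head of the necroptosis route, had the highest base mean, 219 ± 4.68, and gave 39.1% of that sum. *Casp8* and *Gsdmd* followed with 78.5 ± 2.80 and 77.5 ± 2.79. The adaptor gene *Pycard*, which encodes ASC, had 61.7 ± 2.49 and *Casp1* had 53.9 ± 2.32. The sensor gene *Nlrp3* stood lower, at 35.8 ± 1.89. The last group was *Casp4* with 14.3 ± 1.20, *Mlkl* with 10.2 ± 1.01 and *Ripk3* with 8.72 ± 0.935. For these 3 genes the counting error alone was 8.37% to 10.7% of the level, against 2.14% for *Ripk1*.

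**Figure D1:**
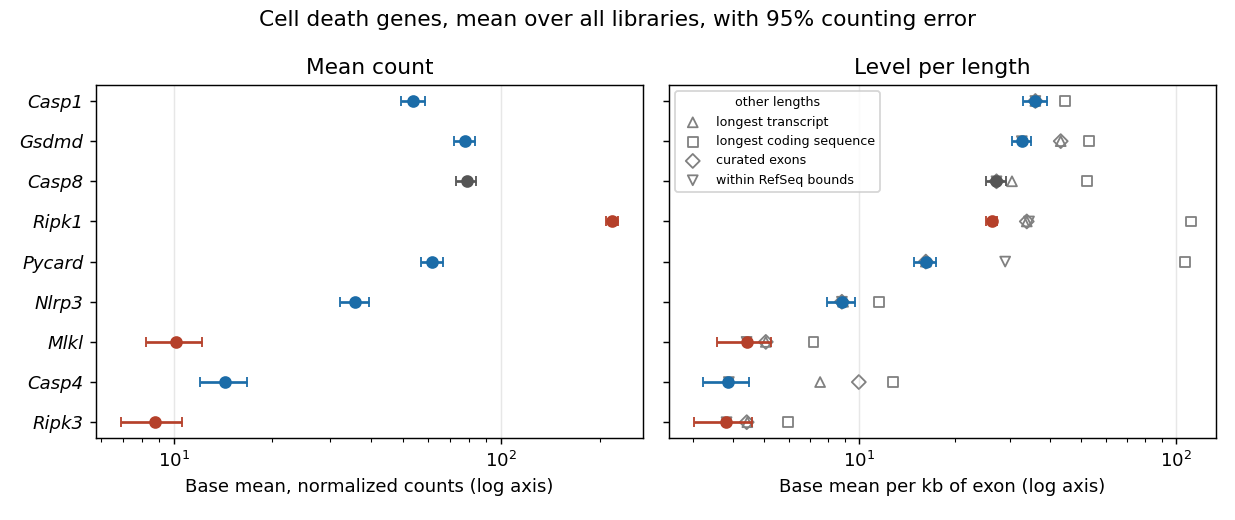
Base mean of each gene (left, normalized counts) and base mean per kb of exon (right), both on log axes, as the authors' mean over all 10 libraries of both genotypes. Filled points carry bars of the 95% counting interval (blue, inflammasome and pyroptosis; grey, *Casp8*; red, necroptosis), and open symbols give the level per kb under 4 other gene lengths. By the filled points, *Ripk3*, *Casp4* and *Mlkl* sit lowest in both panels, and *Ripk1* leads on the left but not on the right.

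Base means are not comparable between genes of unequal length, and the 9 genes differ in exon length from 1497 bases for *Casp1* to 8344 for *Ripk1*. Levels were therefore divided by the length of all exons of the gene in GENCODE M21 (GRCm38). Positions from here on are of that build, with all 9 genes given from the first to the last base of the gene. Per kb of exon, the inflammasome protease gene *Casp1* was highest, at 36.0 ± 1.55. It lies on chromosome 9 from 5298517 to 5307265. *Gsdmd*, the gene of the pore-forming substrate, had 32.6 ± 1.17 per kb and lies on chromosome 15 from 75862327 to 75867408. The difference between them, 3.37 per kb, was within counting error (95% interval −0.44 to 7.18). *Casp8*, on chromosome 1 from 58795374 to 58847503, had 27.1 ± 0.970 per kb. *Ripk1*, on chromosome 13 from 34002363 to 34037147, had 26.2 ± 0.561 per kb, and this pair was not separated by counting error either (difference 0.91, 95% interval −1.29 to 3.10). The order of this pair depended on the length used. *Ripk1* was above *Casp8* under each of the 4 other gene lengths, as with 33.8 against 27.1 per kb over curated exons.

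*Pycard* lies on chromosome 7 from 127989708 to 127993867 and had 16.2 ± 0.654 per kb. Its level depended on the annotation. GENCODE gives it 3800 exon bases, while 2135 of them fall within the gene bounds of RefSeq, which raised the level to 28.9 per kb. Per kb of coding sequence it was 106.5, next to *Ripk1* at 111.2. *Nlrp3*, on chromosome 11 from 59541568 to 59566956, had 8.82 ± 0.467 per kb. Over all exons, the transcript of the sensor was thus 1.84 times below that of its adaptor and 4.08 times below that of *Casp1*. The size of these ratios depends on the gene length. Under the 4 other lengths *Pycard* had 16.2 to 106.5 per kb, *Nlrp3* 8.82 to 11.5 and *Casp1* 36.0 to 44.7.

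The lowest levels per kb were those of *Mlkl* (4.42 ± 0.438), *Casp4* (3.86 ± 0.323) and *Ripk3* (3.80 ± 0.408). Counting error did not separate *Mlkl* from *Casp4* or *Casp4* from *Ripk3*. *Mlkl* lies on chromosome 8 from 111311797 to 111338177 and *Ripk3* on chromosome 14 from 55784995 to 55788865. The necroptosis genes were therefore unequal. *Ripk1*, which also serves survival and inflammatory signalling, was 6.89 times above *Ripk3* and 5.94 times above *Mlkl* per kb, and *Casp8*, whose product cuts RIPK3, was 7.13 times above *Ripk3*. The size of these ratios depends on the gene length. Under the 4 other lengths *Ripk1* had 33.8 to 111.2 per kb, *Ripk3* 3.82 to 5.98 and *Mlkl* 4.42 to 7.18. The inflammatory caspase genes were unequal as well. *Casp4* starts 1562 bases beyond the end of *Casp1* on the same strand (chromosome 9, 5308828 to 5336783) and was 9.32 times lower per kb. That ratio rests on the length of *Casp4*, whose 7 annotated transcripts cover 3710 bases. Over the 1435 exon bases of its curated transcripts, *Casp4* had 9.98 per kb, above *Nlrp3* (8.82 over curated exons), as it was per kb of coding sequence (12.8 against 11.5).

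Of the 8 pairs of neighbours in this order, 4 differed by more than the counting error. These steps were *Gsdmd* over *Casp8*, *Ripk1* over *Pycard*, *Pycard* over *Nlrp3* and *Nlrp3* over *Mlkl*. All 4 kept their direction under the 4 other gene lengths, but their size was not compared with counting error there. Per kb of coding sequence, *Gsdmd* had 53.0 against 52.3 for *Casp8*, and *Ripk1* 111.2 against 106.5 for *Pycard*. *Ripk3* was the lowest gene under each of the 5 lengths. The highest gene was *Casp1*, *Gsdmd* or *Ripk1*, depending on the length.

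The other genes were used only to place these levels. Of the listed genes, 20399 had a base mean above 0 and a gene length, and their median was 63.4 per kb. All 9 members lay below it, from percentile 21.4 for *Ripk3* to percentile 41.4 for *Casp1*. Among all genes listed, those at 0 included, *Casp1* was at percentile 50.9 and the other 8 stayed under the median. *Nlrp3* was at percentile 27.4, *Pycard* at 32.6, and *Ripk1* at 37.5. All 9 were also under the lowest of the 7 microglial markers, *Aif1*, at 72.2 per kb. In RNA of whole tissue, expression in few cells and little RNA per cell cannot be told apart.

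**Figure D2:**
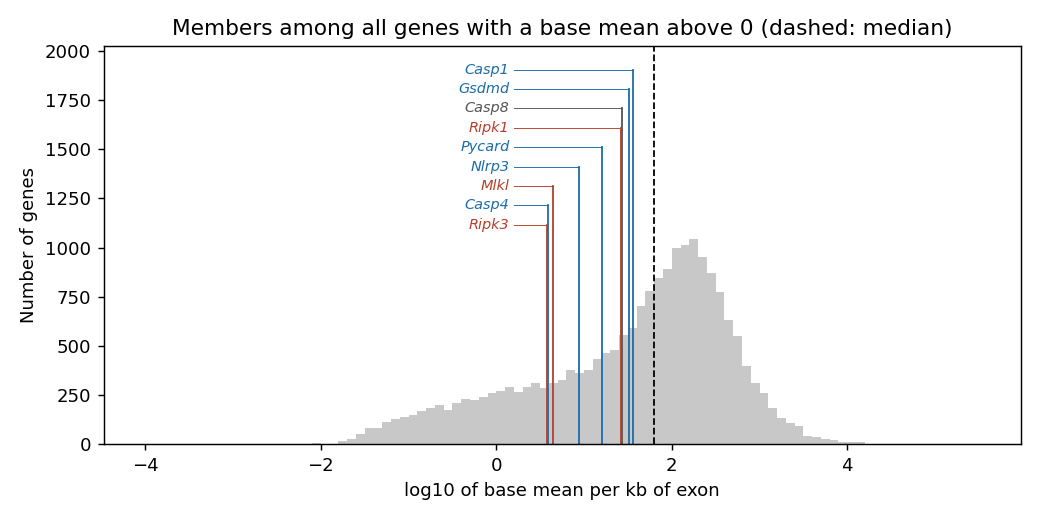
Number of genes (vertical axis) by log10 of base mean per kb of exon (horizontal axis), for genes with a base mean above 0, with the 9 genes as coloured lines (blue, inflammasome and pyroptosis; grey, *Casp8*; red, necroptosis). Line heights carry no value. All 9 lie to the left of the dashed median of 63.4 per kb.

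A wider set of 70 gene symbols in 7 lists by role was followed, of which 69 were listed in the table. The symbol not listed, *Dfna5*, is a former name of *Gsdme*, which was listed. A base mean of at least 10 was found for 47 of the 69 genes (68.1%), as for 8 of the 9 members and for 63.1% of all genes in the table. The median of the 69 genes was 22.5 per kb and that of the 9 members 16.2 per kb. Levels per kb of the wider genes, and their ratios below, use the length of all exons alone. How they depend on the gene length was not tested. Among the inflammasome sensors other than *Nlrp3*, 4 of 12 reached a base mean of 10. *Aim2*, a sensor of cytosolic DNA, was the highest at 38.0 ± 1.04 per kb, above *Nlrp3*, and *Mefv*, the gene of pyrin, the lowest at 0.19 ± 0.0757 per kb. Of the 12 sensors, 9 were below *Nlrp3*. The members of the *Naip* and *Nlrp1* families resemble each other in sequence and only uniquely mapped reads were counted, so their single levels are uncertain, as are those of the *Gsdma* and *Gsdmc* families below.

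The substrates and partners of the inflammasome differed in level. Of the cytokine list, *Il33* was the highest at 1124 per kb. *Il18*, matured by caspase-1, had 318 ± 5.56 per kb, and *Il1b*, its other main substrate, had 2.70 ± 0.377 per kb, a ratio of 117.6. The lowest of that list was *Il18r1*, a receptor chain for IL-18, at 0.22 ± 0.0678 per kb. All 9 inflammasome regulators had a base mean of at least 10. They ran from *Tlr4*, the lipopolysaccharide receptor, at 9.67 per kb to *Txnip* at 262 per kb, and the NLRP3 partner *Nek7* had 243 per kb. Among the gasdermins and membrane rupture genes, 2 of 9 reached a base mean of 10. These were *Gsdme* (28.3 ± 0.472 per kb) and *Ninj1* (245 per kb), which encodes the protein that ruptures the membrane of dying cells. *Gsdmd* had 32.6 ± 1.17 per kb, but *Gsdme* had the higher base mean, 361 against 77.5. *Gsdma2*, *Gsdmc2* and *Gsdmc3* were listed at 0, which allows a base mean of up to 0.301 (3 reads over all libraries). *Gsdma3* had a base mean of 0.712, and the value of *Gsdmc*, 0.0932, was that of 1 read in 1 library.

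The adaptors and regulators of necroptosis had higher levels per kb than *Ripk3* and *Mlkl*, with no test of the difference. The 7 trigger genes lay on both sides of *Ripk3* and *Mlkl*. *Tnf*, *Fasl* and *Zbp1* had lower levels, whereas *Tnfrsf1a*, *Tlr3* (107.1 per kb), *Ticam1* (70.0) and *Fas* (34.5) had higher ones. All 16 necroptosis adaptors and regulators had a base mean of at least 10, with a median of 166 per kb, and 13 of the 16 were above the highest of the 9 members. *Rbck1*, of the linear ubiquitin complex, was highest at 419 per kb, and *Birc3*, a ubiquitin ligase for RIPK1, lowest at 12.8. *Cflar*, whose product restrains caspase-8 and with it forms the brake on necroptosis, had 49.3 per kb and the adaptor *Fadd* 25.1 per kb, close to *Casp8*. Of the triggers, 4 of 7 reached a base mean of 10. The receptor gene *Tnfrsf1a* had 219 per kb, and *Tnf*, its ligand, 1.38 ± 0.290 per kb, the lowest of that list. *Zbp1*, which can engage RIPK3 directly, had 2.69 ± 0.276 per kb. Of the apoptotic caspase list, 7 of 8 reached a base mean of 10, with *Casp9* highest at 127.6 per kb and *Casp14* listed at 0.

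**Figure D3:**
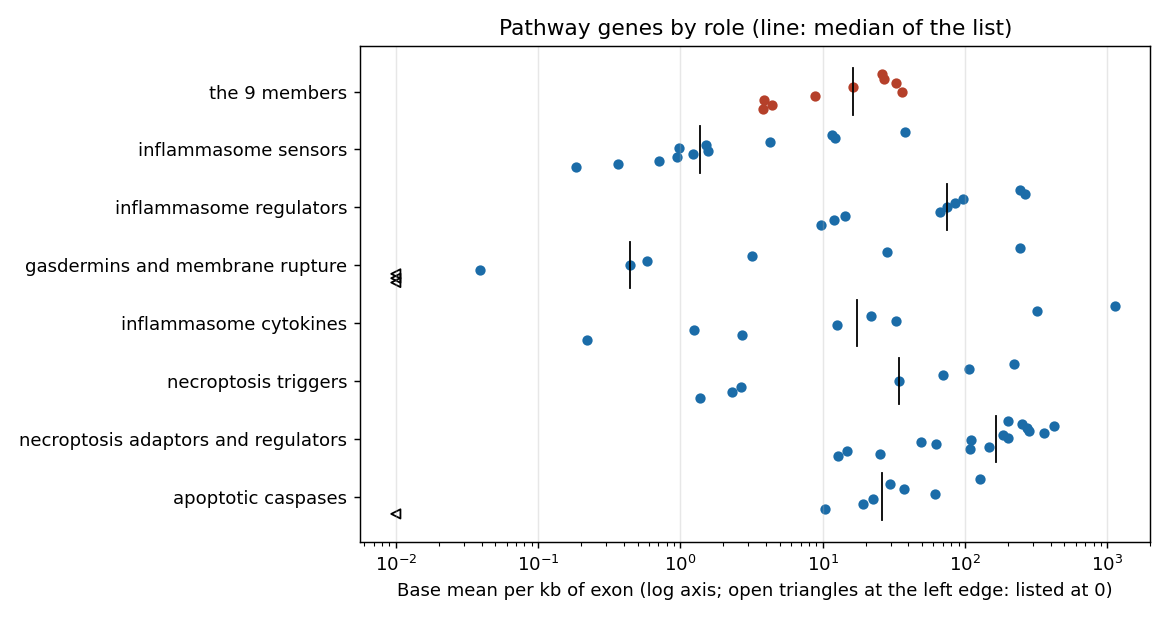
Base mean per kb of exon (log axis) of the 9 members (red) and of the 69 other genes of the 7 lists (blue), 1 point a gene, with the median of each list as a line. Open triangles at the left edge are genes listed at 0. The 9 members span 3.80 to 36.0 per kb, and the necroptosis adaptors and regulators, with a median of 166, lie to their right.

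The promoters of the genes were compared by sequence, since promoters rich in CpG dinucleotides are typical of broadly expressed genes and CpG-poor ones of cell type-restricted genes. RefSeq promoter sequences (GRCm38.p6) matched 8 of the 9 members, all but *Gsdmd*, and the 250 bases before the most upstream start among these sequences were used. For *Casp8* the only start among them is inside the gene (window on chromosome 1 from 58802252 to 58802501, gene start at 58795374), so its count is not that of the gene's first promoter. *Ripk1* held 19 CpG in this window, and 19.5% of all 27025 promoters held as many or more. The other 7 held from 1 in *Casp1* to 8 in *Ripk3*, where the median over all promoters was 6. Sequences are shown for *Ripk1*, for its partner *Ripk3*, and for *Casp1*, the member with the highest level per kb and the fewest CpG, from 5′ to 3′ on the strand of the gene with each CpG in capitals.
Ripk1 (chr13:34002113-34002362, plus strand): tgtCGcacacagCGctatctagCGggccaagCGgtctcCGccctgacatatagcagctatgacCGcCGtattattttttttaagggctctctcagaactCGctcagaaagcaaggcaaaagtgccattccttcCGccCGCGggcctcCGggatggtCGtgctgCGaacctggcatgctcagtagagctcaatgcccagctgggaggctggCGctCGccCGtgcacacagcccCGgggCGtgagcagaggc
Ripk3 (chr14:55788858-55789107, minus strand): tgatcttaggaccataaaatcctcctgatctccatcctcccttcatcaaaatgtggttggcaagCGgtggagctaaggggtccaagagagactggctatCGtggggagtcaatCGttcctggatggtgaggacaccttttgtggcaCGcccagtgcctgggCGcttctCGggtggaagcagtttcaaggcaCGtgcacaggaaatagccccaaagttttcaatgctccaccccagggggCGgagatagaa
Casp1 (chr9:5298267-5298516, plus strand): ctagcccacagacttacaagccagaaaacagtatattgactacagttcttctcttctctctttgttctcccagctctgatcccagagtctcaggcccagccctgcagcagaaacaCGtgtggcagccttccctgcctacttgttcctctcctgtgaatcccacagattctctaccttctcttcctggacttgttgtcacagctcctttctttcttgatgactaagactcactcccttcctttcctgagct

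The last 8 bases of the *Ripk3* window lie in an exon of GENCODE, and the other windows shown hold no exon bases. Of the windows not shown, that of *Pycard* lies under exons over all 250 bases, that of *Casp4* over 21 and that of *Nlrp3* over 1. The *Pycard* window (chromosome 7, 127993868 to 127994117) lies outside the bounds of *Pycard*, so its exons belong to other genes. Bases G and C made up 60.8% of the *Ripk1* window, 54.0% of that of *Ripk3* and 49.2% of that of *Casp1*. Over 15509 genes with a promoter and a base mean above 0, promoter CpG and level per kb had a Spearman correlation of 0.48. It is across genes of the same libraries, which are not independent replicates. The 4757 genes with 11 to 20 CpG had a median of 125.7 per kb and a lower quartile of 43.6, and *Ripk1*, at 26.2, was below that quartile. The 4466 genes with 0 to 5 CpG had a median of 3.27 per kb and an upper quartile of 37.6. *Casp1*, *Casp8*, *Pycard*, *Nlrp3*, *Mlkl* and *Casp4*, with 1 to 5 CpG each, were all between that median and that quartile. *Ripk3*, with 8 CpG, was below the lower quartile (8.16) of the 2495 genes with 6 to 10 CpG.

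**Figure D4:**
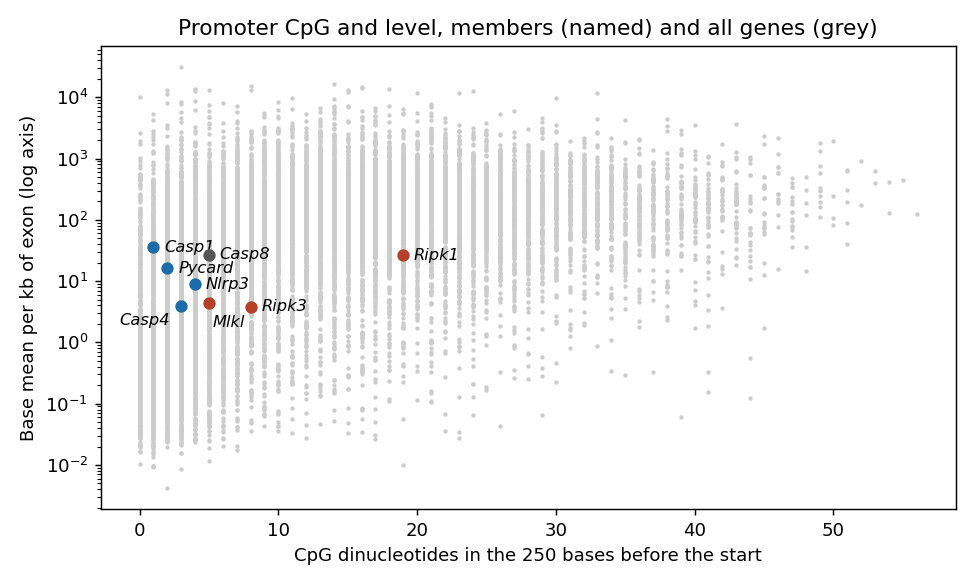
Number of CpG dinucleotides in the 250 bases before the start (horizontal axis) against base mean per kb of exon (vertical log axis), for 15509 genes (grey) and the 8 members with a promoter sequence (blue, inflammasome; dark grey, *Casp8*; red, necroptosis). *Ripk1*, at 19 CpG, stands apart from the other 7 on the horizontal axis but not on the vertical one.

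The exons of 2 members overlap those of other genes. *Pycard* shares 485 exon bases (12.8% of its length) with *Gm45205* on the opposite strand. *Ripk1* shares 511 bases (6.12%) with the pseudogene *Gm17084* on its own strand and 241 (2.89%) with *Serpinb6a* on the opposite one. The libraries were stranded and the strand setting of the counting is not given in the sources used here, so whether reads of the opposite strand were counted was not tested.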

How the data were processed

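RNA of the spinal cord of 5 *SOD1G93A* and 5 WT females was sequenced as stranded mRNA libraries. Per the methods and the submitters' processing notes, the authors filtered reads with Fastp, aligned them to mm10 with HISAT2 2.1.0, quantified genes with featureCounts 2.0.2 from reads that mapped to 1 place only, and compared the groups with DESeq2. The gene annotation is not given in the sources used here. The authors deposited 1 table. Its base mean, a signal made by the authors as the mean over all 10 libraries of counts divided by size factors, is the only column used. The other columns hold the authors' own comparison of the genotypes (fold change, standard error, statistic, p-value and adjusted p-value) and were not used, so no test was run.

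Of the 25232 symbols, 24355 (96.5%) matched GENCODE M21 on GRCm38, the build that mm10 denotes, and 99.2% matched RefSeq. A gene's length was the union of its exons, and its level the base mean per 1000 bases. Size factors were read from base means under 1.99 times the smallest above 0, and the counting error from these and the base mean, from which the 95% intervals follow by a normal approximation. Recovery of size factors and of the counting error was tested on simulated data. The counts were simulated with counting error alone, so other error, such as from counting both reads of a pair, was not tested. Named were the 9 members, of each list the highest and lowest gene per kb, and genes with a base mean under 1. *Nek7*, *Il18*, *Il1b*, *Gsdme*, *Cflar*, *Fadd*, *Zbp1*, *Fasl*, *Fas*, *Tlr3*, *Ticam1* and the tissue markers printed were chosen after their values were seen. Members and lists were chosen with earlier results of these data known. Python 3.11.15, numpy 2.4.6, pandas 2.3.3 and matplotlib 3.10.9 were used.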

Additional observations from a re-analysis of the deposited data

How the results depend on the processing

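The ratio of the highest to the lowest member per kb was 9.46. It stayed between 9.42 and 9.79 with the longest transcript, with exons of curated transcripts and with exon bases within RefSeq gene bounds, the last chosen after seeing the data, and was 18.6 with the longest coding sequence, which leaves out the untranslated parts of unequal length. Of 36 levels of single members under these 4 lengths, 18 moved beyond the counting error. The median percentile of the 9 members was 32.6. It was 43.6 among all genes listed, where *Casp1* passed the median (50.9), 13.5 among those whose base mean reached 10, 27.6 among protein-coding genes and 35.0 for the base mean without division by length. The median counting error of 4.31% was the same to 3 digits with all size factors set to 1, and the number of wider genes measured was 62 with a base mean of at least 1 and 45 with at least 50. No paired analysis was possible because the table holds no values of single libraries, and for the same reason no library could be left out. The counting error limits most the levels of *Ripk3*, *Mlkl* and *Casp4*.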
